A study of Mus musculus with 8 samples.

Results

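The p300 and H3K4me3 peak lists of proliferating iMOPs were set against each other. They hold 3144 p300 peaks and 7472 H3K4me3 peaks, out of 26724 peaks in the 6 lists of the series. A p300 peak counted as at H3K4me3 when it shared at least 1 bp with an H3K4me3 peak and as away from it otherwise, which placed 1407 p300 peaks at H3K4me3 and 1737 away. Likewise 1378 H3K4me3 peaks had p300 and 6094 did not. iMOPs (immortalized multipotent otic progenitors) are a mouse line with features of inner ear progenitors. The cells were wild-type, received no treatment and were grown as dividing cells in DMEM/F12 with B27, carbenicillin and 20 ng/ml bFGF. For side comparisons the report also uses CHD4 peaks of the same cells, and p300, H3K4me3 and CHD4 peaks of neurons derived from the line in Neurobasal medium with N21, L-glutamine and 1 µM K03861. Each antibody was profiled in 1 CUT&Tag library per state, with 500000 cells per library. In CUT&Tag an antibody brings a transposase to its target, and the DNA cut there is sequenced. With 1 library per group there is no replicate check and no p-value, read depth is unknown, and the IgG controls were not analysed here. The 95% intervals (exact Clopper-Pearson for shares, order statistics for medians) cover counting error only, since peaks of a library are not replicates.

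p300, encoded by Ep300, is an acetyltransferase brought to DNA by transcription factors. It acetylates histones at active enhancers and promoters, where it works as a coactivator. H3K4me3 is placed on the first nucleosomes of active or poised genes, mostly at CpG-rich promoters, by SET1 and MLL enzymes such as Kmt2a and Kmt2b. Enhancers far from genes usually carry little H3K4me3, so the mark splits p300 sites into a promoter-like and a distal class. In the developing inner ear, progenitors depend on Notch and FGF signalling and on SOX factors.

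The stretches below show what a promoter in each class looks like. They are the 150 bases before the outermost RefSeq start (GRCm38.p6, the assembly of mm10), for starts with the highest p300 signal inside the window that runs from 250 bases before to 50 bases after it. Capitals mark matches, on either strand, to short elements. The CCAAT box is named by its letters, and the GC box was searched as GGGCGG. The TATA box was searched as TATAAA and the AP-1 element as TGANTCA. The cyclic AMP response element (CRE) was searched as TGACGTCA. SOX matches were searched as ACAAAG and ETS matches as GGAAGT. Matches may overlap each other, and a match is a description of the letters, not a binding site. First come the 4 strongest p300 peaks at starts with H3K4me3 among the gene lists described further on. They lie at Jun (an AP-1 subunit), Mbd3 (a subunit of the NuRD deacetylase complex), Sema6c (a semaphorin) and Vim (the intermediate filament vimentin). Each holds a CCAAT box, with first bases at -65 in Jun, -94 in Mbd3, -75 and -23 in Sema6c, and -94 in Vim, counted from the start.
Jun, chr4:95052223-95052372 (- strand): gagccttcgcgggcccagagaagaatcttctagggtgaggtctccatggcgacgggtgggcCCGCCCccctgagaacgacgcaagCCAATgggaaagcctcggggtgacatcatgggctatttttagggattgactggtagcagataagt
Mbd3, chr10:80399532-80399681 (- strand): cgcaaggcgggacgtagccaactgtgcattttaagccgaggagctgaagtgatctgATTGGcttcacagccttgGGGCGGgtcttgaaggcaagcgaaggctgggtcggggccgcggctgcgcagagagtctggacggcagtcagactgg
Sema6c, chr3:95160270-95160419 (+ strand): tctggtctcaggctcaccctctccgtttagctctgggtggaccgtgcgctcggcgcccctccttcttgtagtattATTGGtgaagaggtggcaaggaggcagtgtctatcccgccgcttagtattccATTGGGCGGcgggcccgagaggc
Vim, chr2:13574161-13574310 (+ strand): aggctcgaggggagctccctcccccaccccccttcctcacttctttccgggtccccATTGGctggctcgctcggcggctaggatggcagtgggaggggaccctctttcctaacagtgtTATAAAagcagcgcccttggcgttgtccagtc

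Then come the 4 strongest p300 peaks at starts outside H3K4me3. They belong to the histone genes H2bc14, H2ac6 and H2bc3, which carry 3, 2 and 3 CCAAT boxes, and to the vomeronasal receptor gene Vmn2r29, which carries none and has 2 ETS matches. These 3 histone stretches are AT-rich, with 4, 3 and 0 CpG dinucleotides against 8, 11, 10 and 7 in the stretches of Jun, Mbd3, Sema6c and Vim. The stretch of Vmn2r29 has 11.
H2bc14, chr13:21721894-21722043 (+ strand): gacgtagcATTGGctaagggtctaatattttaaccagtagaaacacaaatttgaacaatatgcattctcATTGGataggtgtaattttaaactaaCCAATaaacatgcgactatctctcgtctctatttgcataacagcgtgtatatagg
Vmn2r29, chr7:7278290-7278439 (- strand): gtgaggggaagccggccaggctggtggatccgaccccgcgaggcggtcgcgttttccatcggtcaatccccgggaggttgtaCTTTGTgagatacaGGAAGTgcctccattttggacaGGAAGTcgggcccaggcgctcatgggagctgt
H2ac6, chr13:23683960-23684109 (- strand): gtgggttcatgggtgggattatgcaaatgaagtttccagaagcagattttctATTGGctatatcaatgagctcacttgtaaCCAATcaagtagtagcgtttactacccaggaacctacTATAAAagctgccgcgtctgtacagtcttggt
H2bc3, chr13:23746584-23746733 (+ strand): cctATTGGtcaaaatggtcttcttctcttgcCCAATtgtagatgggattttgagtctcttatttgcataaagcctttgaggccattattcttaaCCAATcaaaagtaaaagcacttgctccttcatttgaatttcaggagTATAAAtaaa

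The first comparison asked how much of p300 lies at promoters marked by H3K4me3. It was less than the share away: 44.8% of p300 peaks (95% interval 43.0 to 46.5%) were at H3K4me3 and 55.2% were away. The reverse share was smaller, as 18.4% of H3K4me3 peaks (17.6 to 19.3%) had p300. The overlaps were mostly whole rather than marginal. Of the p300 peaks at H3K4me3, 64.7% lay entirely inside the marked region, and 97.5% had their position of highest signal inside it. In 1369 of 1407 pairs of a p300 peak and its most overlapping H3K4me3 peak, the highest p300 signal lay inside the H3K4me3 peak. Of these 1369, 80.1% lay in the middle 50% of the H3K4me3 peak. For the highest H3K4me3 signal itself the share was 83.9% over all 1407 pairs. The 2 highest signals shared the same 50-bp step in 235 of 1407 pairs (16.7%), and were within 200 bp of each other in 52.3% and within 1000 bp in 79.5%. Only 4 p300 peaks overlapped by 500 bp or less, and 31 peaks just outside the rule came within 1 kb of H3K4me3 without touching it. Those 31 had a median width of 4250 bp and a median total-signal percentile of 33.1. With only the stronger 50% of each list by highest signal the shares fell to 29.6% of p300 peaks and 12.4% of H3K4me3 peaks. With H3K4me3 trimmed to as many peaks as p300 they were 34.5% and 33.6%.

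Away from H3K4me3, p300 peaks were mostly far from the mark. Their median gap to the nearest H3K4me3 peak was 64000 bp (59200 to 69350 bp, n = 1713 peaks on sequences that hold H3K4me3), with a middle 50% of 23400 to 157250 bp. The class from 10 to 50 kb held 508 peaks (29.2%) and that from 100 to 500 kb held 543 (31.3%), while 90 lay over 500 kb away. Another 24 peaks were on sequences with no H3K4me3 peak. Distance to genes followed the same split. Of the p300 peaks at H3K4me3, 84.6% came within 1 kb of the start of a protein-coding gene, 7.75% lay elsewhere in a gene body and 7.68% outside genes. Of those away, 8.0% came within 1 kb of a start (139 peaks), 43.6% lay elsewhere in a gene body and 48.4% outside genes. With H3K4me3 trimmed to as many peaks as p300 the median gap was 127500 bp and 17.5% of the peaks away lay at a start. The position of highest p300 signal was a median 240.5 bp from the nearest start in the first class and 31038.5 bp in the second.

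**Figure D1:**
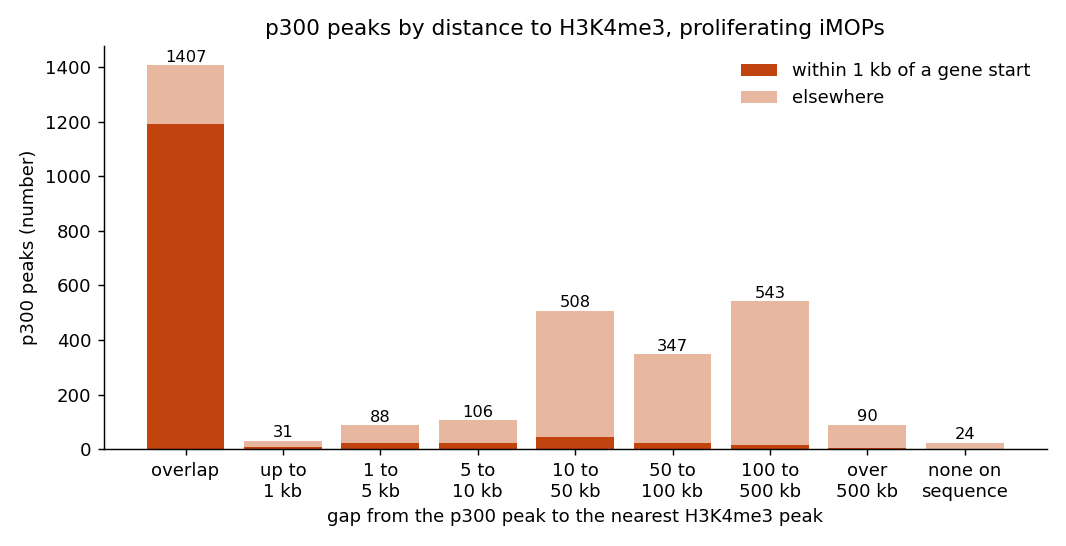
Number of p300 peaks of proliferating iMOPs by their gap to the nearest H3K4me3 peak (bars, with the count above each), split into peaks within 1 kb of a gene start (dark) and the rest (light). The 1407 overlapping peaks were mostly at gene starts, and the 508 and 543 peaks at 10 to 50 kb and 100 to 500 kb mostly were not.

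The median width was 3350 bp in each, with a difference of 0 bp (-141 to 112 bp). The median percentile of total signal within the p300 list was 48.5 at H3K4me3 and 51.6 away (difference -3.05 points, -6.57 to 0.52), and that of highest signal was 48.2 and 51.2 (-2.97 points, -6.33 to -0.23). These comparisons changed with the peaks that were kept. With the stronger 50% by total signal the difference in total-signal percentile was -4.52 points (-9.45 to 0.86). The ratio of widths, at over away, was then 1.05 (0.98 to 1.13). With the stronger 50% of peaks by highest signal the percentile difference was -13.8 points (-19.5 to -9.08) and the ratio of widths, at over away, was 0.873 (0.812 to 0.929). With p300 trimmed to as many peaks as in neurons the ratio was 1.20 (1.09 to 1.33), and with H3K4me3 trimmed the percentile difference was 0.18 points (-3.10 to 4.32). Signal per bp was 5.35 at H3K4me3 and 5.79 away. Across quartiles of the p300 list by total signal, from lowest to highest, the share at H3K4me3 was 46.7%, 45.9%, 44.9% and 41.5%. In quartiles by width it was 44.0%, 45.7%, 42.4% and 46.9%. The 139 peaks away from H3K4me3 but at a gene start were wider than the other peaks away, with a median of 4000 bp (3600 to 4550 bp), and had less signal per bp (4.54).

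**Figure D2:**
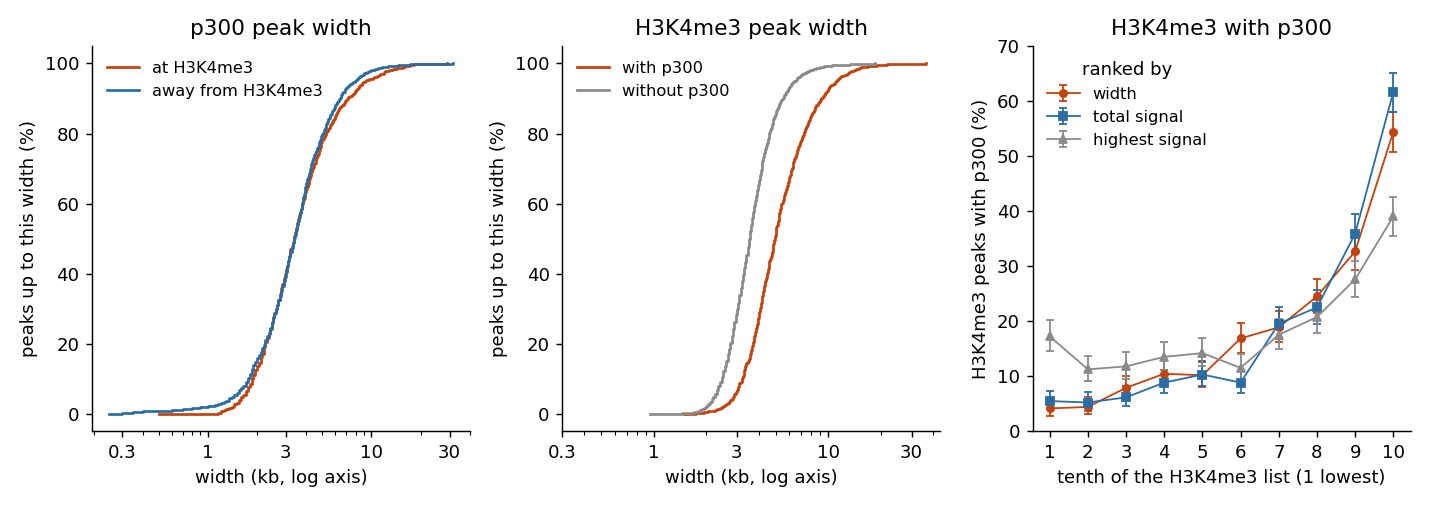
Left and middle, the cumulative share of peaks (%) up to each width (kb, log axis) for p300 peaks at and away from H3K4me3 and for H3K4me3 peaks with and without p300; right, the share of H3K4me3 peaks with p300 (%, bars are 95% intervals) in deciles of the H3K4me3 list ranked by width, total signal or highest signal. The p300 curves lie on each other near 3350 bp, while H3K4me3 peaks with p300 are shifted to larger widths and reach 54.4% and 61.6% in the top deciles by width and total signal.

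The strongest p300 peaks were found in both classes, and several sat at genes of transcriptional control and signalling. At H3K4me3 the fourth strongest lay at Dll1, a Notch ligand (chr17:15371601-15383300, 11700 bp, total signal 118915), with 99.1% of its length inside H3K4me3. Others among the 12 strongest were at the starts of Mcl1 (an anti-apoptotic BCL2 relative, 110716), Fasn (fatty acid synthase, 104399), Ddr1 (a collagen receptor kinase, 99832.5) and Foxo6 (a forkhead factor, 96733.5). Further ones were at Sfi1 or had Fbxw8, Actg1, Nfic or Trmt61a as the nearest gene. All 12 also overlapped CHD4, the ATPase of NuRD, in the same cells, as did 98.2% of peaks at H3K4me3 in the top quartile of total signal.

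Among the 12 strongest peaks away from H3K4me3, 2 lay within 1 kb of a start, at Gpr153 and Lrp8, an ApoE receptor (chr4:107818651-107838600, total signal 107839). The strongest (chr7:64073201-64090250, total signal 151921) lay outside genes, 51848 bp from the start of Gm45988 and 132000 bp from H3K4me3. The second was 74199 bp from the start of Gadd45g, a stress and cell cycle exit gene (chr13:51916201-51925000, total signal 135477, 65700 bp from H3K4me3). The peak nearest to Grasp had the highest single value of the 12, with a highest signal of 163.99 (chr15:101234101-101242900), and was 5300 bp from H3K4me3. The one inside Nkd1, a Wnt antagonist (chr8:88565851-88574350, total signal 108996), was 41991 bp from the start. The peaks with Plekha1 and Tut7 as the nearest genes lay 30148 and 103077 bp from their starts. They were narrow and dense, at 19.5 and 21.7 units of signal per bp over 5950 and 5600 bp. The other strong peaks away had Cibar2, Ccdc85c, Rdm1 or Flg2 as the gene with the nearest start. The peak with Cibar2 as that gene was 112455 bp from its start and lay inside the body of Gse1. Again all 12 overlapped CHD4, against 96.5% of peaks away in the top quartile of total signal.

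Peaks away from H3K4me3 clustered near some genes. With the nearest start within 50 kb, 1104 peaks were assigned to 913 genes, which is 4.17% of the 21883 protein-coding genes, and 138 of these genes had 2 or more. Ccdc182 had 8 peaks 5092 to 40917 bp from its start and Gse1, a coregulator gene, had 7 at 6465 to 39140 bp. Cuedc1, Septin9 and Gm15319 had 5 each. Of the 7 genes with 4, those named by the rule were Rassf3, Socs3 (a cytokine signalling inhibitor) and Celsr1 (a planar polarity cadherin). Gse1, Septin9, Rassf3 and Socs3 also had a p300 peak at the start that overlapped H3K4me3, while Ccdc182, Gm15319 and Celsr1 had neither mark there. Cuedc1 had H3K4me3 at a start and a p300 peak within 1 kb of another that was itself away from H3K4me3. Over all genes a peak away was nearest to 8.19% of those with both H3K4me3 and p300 at the start (6.85 to 9.70%), 4.07% of those with H3K4me3 only (3.61 to 4.57%) and 3.78% of those without H3K4me3 (3.47 to 4.12%). A peak away that lies at a start counts on both sides of the first share. With such peaks left out, a choice made after seeing the data, the shares were 6.91% (5.68 to 8.32%), 4.07% and 3.03% (2.75 to 3.33%).

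The 5 peaks farthest from H3K4me3 within 100 kb of a gene were 2702300 to 5643800 bp from the mark. They had Btbd35f29 (2 peaks) and Btbd35f6 on chromosome X and Gm17019 and Speer4d on chromosome 5 as the nearest genes, which belong to families with many similar copies. Their highest signal was 10.1 to 13.6 and their signal per bp 3.06 to 4.19, below the medians of 23.7 and 5.79 for all peaks away. By total signal the peaks near Btbd35f29 and Btbd35f6 stood at percentiles of 77.4 to 85.8. Those near Gm17019 and Speer4d stood at 10.3 and 7.08. None of the 5 overlapped CHD4 in either state or p300 of neurons. The placement of reads from repeated sequence is not described in the labels, and its part in these peaks was not tested. The same holds for the peaks at Vmn2r29 and near Gm15319, which also belong to families with many similar copies.

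The second comparison asked which H3K4me3 peaks had p300. These were the wider and stronger ones. Median width was 4950 bp (4850 to 5050 bp) with p300 and 3550 bp (3500 to 3550 bp) without, a difference of 1400 bp (1300 to 1512 bp). Their median percentile was 81.8 by total signal and 67.0 by highest signal, against 43.7 and 47.2 without p300. The share with p300 rose from 4.14% in the narrowest decile to 54.4% in the widest, and from 5.48% to 61.6% over deciles of total signal. By highest signal the rise was less steep and not monotonic, from 17.2% and 11.2% in the lowest deciles to 39.0% in the top one. A wider peak also offers more bases to overlap. Within quartiles of width the peaks above the quartile's median signal per bp still had p300 more often than those below it: 6.96% against 2.68% in the narrowest quartile, 16.0% against 4.07% and 26.8% against 10.1% in the middle ones, and 49.2% against 31.8% in the widest. Within pairs that overlapped, the widths of the p300 and the H3K4me3 peak moved together (Spearman's rho 0.55 over 1407 pairs, which share the stretch of genome called), while total signals did so weakly (rho 0.21).

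At Sox2, the transcription factor of otic and neural progenitors, H3K4me3 spanned 26300 bp (chr3:34646051-34672350), of which 41.3% was covered by p300. The peak at Pou3f3, a POU factor gene, spanned 32850 bp (chr1:42682601-42715450, 29.8% covered) and that at Nfib, a nuclear factor I gene, 21850 bp (14.2% covered). The widest of all, 36550 bp at chr15:85651501-85688050, had no protein-coding start within 1 kb (nearest Ppara, 56600 bp), nor did the 28100-bp peak at chr13:83714601-83742700 (nearest Mef2c, 147567 bp). Without p300 the widest peak spanned 18500 bp, with Abt1 as the nearest gene. It also spanned the start of Abt1, and its highest signal lay 8908 bp from that start. The next had Nr2f2 (an orphan nuclear receptor, 17450 bp), Gas8 (17350 bp), Cdkn1b (a cell cycle inhibitor, 16950 bp) and Ndufa4l2 (16400 bp) as the nearest genes, with the peaks of Cdkn1b and Ndufa4l2 spanning their starts. By location, 17.6% of H3K4me3 peaks at gene starts had p300, 23.5% of those elsewhere in gene bodies (18.8 to 28.8%) and 39.1% of those outside protein-coding genes (32.6 to 45.9%).

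Some p300 and H3K4me3 peaks hold microRNA genes, whose mature sequences are shown to identify the products of the genes described. Of 1005 mouse hairpins in the RefSeq table, 38 lay inside p300 peaks at H3K4me3 and 8 inside p300 peaks away. These counts include peaks at coding starts. H3K4me3 peaks with p300 held 45 hairpins and those without held 63. The 4 classes cover 5.81, 6.68, 7.89 and 23.4 Mb, in that order. The 28100-bp H3K4me3 domain holds the Mir9-2 hairpin, inside a p300 peak of 3650 bp at the 52.4 percentile. miR-9 is a regulator of neural progenitor division and differentiation. Mir132 and Mir212, whose 3p products share a seed, lay in 1 p300 peak of 5950 bp at H3K4me3 near Hic1, at the 73.8 percentile. Mirlet7b and Mirlet7c-2, which also share a seed, lay in a p300 peak away from H3K4me3 (chr15:85696801-85713300, 16500 bp, 97.9 percentile). That peak begins 8750 bp past the end of the 36550-bp H3K4me3 domain, and it was listed again in neurons. Mir26a-1 lay in another strong peak away (chr9:119031251-119038150, 6900 bp, 97.9 percentile, 102250 bp from H3K4me3), also listed again in neurons. These microRNAs were chosen after their values were seen, and copies of the same mature product elsewhere in the genome were not examined. Capitals mark the seed, bases 2 to 8.
mmu-miR-9-5p: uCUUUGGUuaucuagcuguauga
mmu-miR-132-3p: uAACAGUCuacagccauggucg
mmu-miR-212-3p: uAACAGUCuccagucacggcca
mmu-let-7b-5p: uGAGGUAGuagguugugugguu
mmu-let-7c-5p: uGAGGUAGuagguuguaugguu
mmu-miR-26a-5p: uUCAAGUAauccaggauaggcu

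Non-coding starts accounted for a part of the remaining overlap. Of 217 p300 peaks at H3K4me3 but not at a protein-coding start, 45 (20.7%, 15.5 to 26.7%) came within 1 kb of a non-coding start, against 104 of 1598 (6.51%, 5.35 to 7.83%) among the peaks away. For H3K4me3 peaks not at a coding start the share was 25.8% with p300 and 23.2% without, with intervals that overlap.

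The highest p300 signal lay upstream of the gene start more often than the highest H3K4me3 signal did. The order of the p300 and H3K4me3 maxima at each start was not computed. At 1137 starts of known strand inside both a p300 and an H3K4me3 peak, the highest p300 signal lay at a median of -138 bp (middle 50% -287 to 86 bp). It was more than 50 bp upstream at 61.8% of these starts and more than 50 bp downstream at 28.1%. The highest H3K4me3 signal at the same starts had a median of 25 bp, with 41.0% upstream and 46.0% downstream. At 5516 starts with H3K4me3 but no p300 its median was 70 bp, with 29.6% upstream and 54.5% downstream. The bin from -300 to -100 bp held 32.6% of the p300 maxima, against 14.7% of the H3K4me3 maxima at those starts. Positions are known to 50 bp, and starts of neighbouring genes can share a peak. The starts are 1 per gene, the one with the lowest coordinate among those inside H3K4me3. For genes on the minus strand with several such starts this is the most downstream one. The effect of this choice on the positions was not tested.

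**Figure D3:**
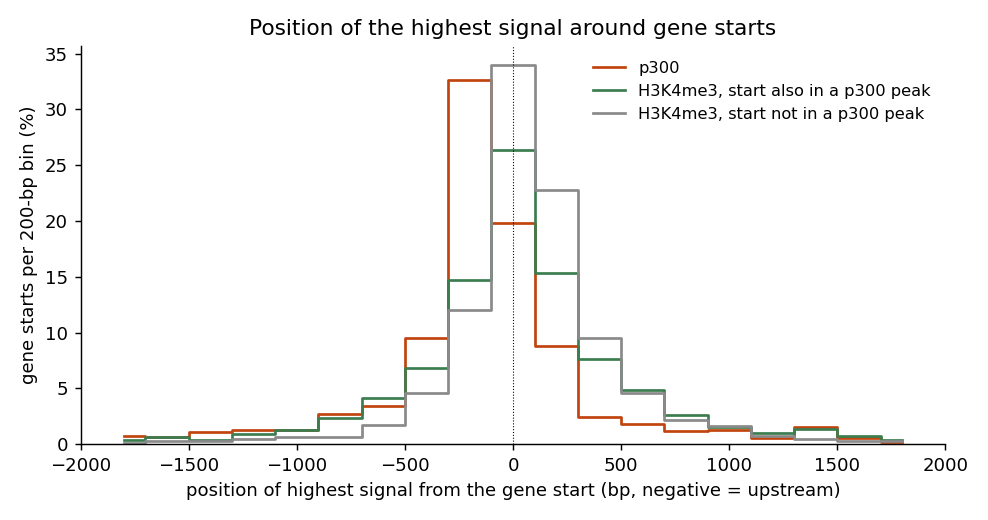
Distribution of the position of highest signal around gene starts (x axis, bp, negative values upstream), as the share of starts per 200-bp bin (%), for p300 and H3K4me3 at 1137 starts inside both peaks and for H3K4me3 at 5516 starts without p300. The p300 line peaks in the bin from -300 to -100 bp (32.6%), and both H3K4me3 lines peak in the bin that holds the start.

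The CpG content of promoters differed more between the presence and absence of H3K4me3 than between promoters with and without p300. The 300-bp windows were sorted into 1405 with both marks, 6569 with H3K4me3 only, 108 with p300 only and 13180 with neither. The ratio of observed to expected CpG had medians of 0.81, 0.83, 0.37 and 0.31 in that order, against 0.57 over all 21262 windows. Within H3K4me3 windows the share with p300 fell from 19.0% in the lowest quartile of CpG (17.3 to 20.8%) to 15.7% in the highest (14.2 to 17.4%). The CCAAT box, bound by the trimeric factor NF-Y, was the element whose share differed most between H3K4me3 windows with and without p300. It was present in 47.8% of windows with both marks (45.2 to 50.5%) and 37.6% with H3K4me3 only (36.5 to 38.8%), against 38.2% of all windows. In quartiles of CpG the shares with and without p300 were 47.5% and 42.4%, 50% and 40.8%, 51.2% and 37.3%, and 42.0% and 30.4%. The difference was also present over outermost starts alone (52.7% and 39.9%). It was largest from 51 to 100 bases before the start, with 22.2% and 14.4%, the stretch in which the boxes of Jun, Mbd3, Sema6c and Vim printed above have a match.

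Other elements differed less. ETS matches were less common with p300 (22.5%, 20.3 to 24.8%) than in windows with H3K4me3 only (28.5%, 27.4 to 29.6%), against 24.8% of all windows. GC boxes were found in 74.1% and 70.6% (46.2% of all), TATA boxes in 6.05% and 4.93% (12.6% of all), and SOX matches in 11.9% and 11% (16.8% of all). AP-1 matches were in 3.06% and 3.55% (6.99% of all), CRE matches in 2.99% and 3.58% (2.23% of all). E-boxes (CANNTG, not marked in the sequences above) were in 57.9% of each, against 69.0% of all windows. In the 108 windows with p300 only, SOX matches were in 25.9% (18.0 to 35.2%) and TATA boxes in 23.1% (15.6 to 32.2%), against 20.1% and 17.0% of windows with neither mark. CCAAT boxes were in 47.2% of them (37.5 to 57.1%), against 37.4% of windows with neither mark and 47.8% with both.

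Histone genes made up a visible part of that last class. Of 67 genes with systematic histone symbols (H1f, H2ac, H2bc, H3c and H4c), 47 had p300 within 1 kb of the start (70.1%) and 41 had H3K4me3 (61.2%). They supplied 19 of the 164 genes with p300 but no H3K4me3 at the start. The genes are clustered and rest on 24 p300 peaks, of which 22 are on chromosome 13 and 11 overlap H3K4me3, so they are not independent. Without the 18 histone windows the p300-only class had TATA boxes in 13.3% (7.08 to 22.1%) and CCAAT boxes in 38.9% (28.8 to 49.7%). The CCAAT shares of the H3K4me3 windows with and without p300 stayed at 47.2% and 37.6% when histone genes were left out. Histone genes were singled out after their values were seen.

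By gene, 8197 of 21883 had H3K4me3 within 1 kb of a start (37.5%) and 1654 had p300 there (7.56%). Of the genes with H3K4me3, 1490 also had p300 (18.2%), against 164 of 13686 genes without it (1.20%). With H3K4me3 trimmed to as many peaks as p300 the share was 31.9%. The 2 peaks need not touch to count for the same gene, as at Ski and Hdac7, where they did not. Counts over 23 gene lists are given beside these backgrounds as descriptions, since the lists were chosen and their members are not independent.

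Of the 23 lists, Notch genes had the highest share with p300 at the start, with NuRD genes next and no difference tested. Of 22 Notch genes, 15 had H3K4me3 and 11 had p300 at the start (50%), each of the 11 with H3K4me3 as well. The ligand Dll1 led with the 99.7 percentile, followed by the glycosyltransferase Lfng at 99.0 (total signal 87362.7 over 7000 bp), the receptor Notch1 at 96.4 (55098.4) and the Hes family gene Hes6 at 93.8 (45342). Hes1, a Notch target that holds back neuronal differentiation, was at 78.2, with a second p300 peak 2278 bp from its start and 1450 bp from H3K4me3. Notch1 had 2 peaks away, the stronger 16246 bp from its start at the 90.6 percentile. Jag1, Mfng, Maml1 and Numb had H3K4me3 without p300.

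Of 22 AP-1 and immediate early genes, 20 had H3K4me3 and 9 had p300 (40.9%), led by Junb (92.7 percentile, 9050 bp wide), Jund (90.4), Jun (88.9) and Ier2 (87.6). Fos, the partner of Jun in AP-1, was at 50.3. Fosb, Fosl1 and Myc, the growth regulator, had H3K4me3 only, with a Myc mark of 5300 bp. Of 22 BMP and TGF-beta response genes, 16 had H3K4me3 and 9 had p300 (40.9%), among them the dominant negative HLH genes Id3 (92.8), Id2 (66.7) and Id1 (48.8). Id3 also had 2 peaks away, the stronger of them 38646 bp from its start. FGF and ERK genes had H3K4me3 at 20 of 22 and p300 at 6 (27.3%). The 6 were Etv5 (69.7), Dusp6 (63.5), Spred1 (53.7), Spred2 (35.5), Dusp4 (28.0) and Etv1 (14.8). The receptors Fgfr1, Fgfr2 and Fgfr3 and the inhibitors Spry1 and Spry2 had H3K4me3 only. Fgfr1 had 2 peaks away.

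Of 25 Wnt genes 15 had H3K4me3 and 2 had p300 at the start (8.0%), Fzd2 and Fzd7, while 4 were nearest to peaks away, Nkd1, Wnt7b, Znrf3 and Axin2 (16.0%). Of 20 Hippo genes 17 had H3K4me3 and 2 had p300, Ccn1 (91.4) and Amotl2 (9.62). At Amotl2 the peak 27728 bp from the start was much stronger (93.3 percentile) than that at the start.

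Otic progenitor factors had H3K4me3 at 16 of 28 and p300 at 5 (17.9%). The strongest were Irx5 (90.0) and Pax3 (80.2), and Sox2 was at 53.7 with a start peak of 4650 bp, far narrower than its 26300-bp H3K4me3 domain. Pax3 had 2 peaks away, the stronger in the gene body 40757 bp from the start (89), and Sox9 had 1 at 30417 bp (65.5). Sox10, without H3K4me3, was nearest to a peak 28584 bp off. Of 24 neuronal transcription factors 7 had H3K4me3 and 2 had p300, Insm1 (24.6) and Neurog2 (23.3), and none was nearest to a peak away. Neurog1 and Neurod1, which drive the auditory neuron fate, had neither mark. Among 26 neuronal cytoskeleton and axon genes 10 had H3K4me3 and 3 had p300: Tubb3, a neuronal tubulin (89.9, 10200 bp), Tubb2b (87.4) and Stmn1 (32.6).

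Of 22 Eph and ephrin genes 13 had H3K4me3 and 4 had p300 (18.2%), Efna4 (71.7), Efna5 (26.1), Ephb3 (11.1) and Epha4 (10.4), with no peak away assigned. Of 31 semaphorin, plexin and neuropilin genes 14 had H3K4me3 and 5 had p300 (16.1%), led by Sema6c (73.7) and Sema4c (66.8). Of 24 Slit, Robo and netrin genes 11 had H3K4me3 and 3 had p300 (12.5%). Draxin, a secreted guidance cue, had one of the widest start peaks (14250 bp, 97.8) over H3K4me3 of 4850 bp. Slit1, a Robo ligand, had p300 at its start with no H3K4me3 (chr19:41745301-41748500, 3200 bp, 14.6), and 3 peaks away, the strongest 9099 bp from the start and 59600 bp from H3K4me3.

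Growth and chromatin genes differed among themselves at similar H3K4me3. Cell cycle progression genes had H3K4me3 at 25 of 30 and p300 at 10 (33.3%), among them E2f1 (76.2), Mcm7 (74.9), E2f2 (66.3) and Ccne2 (58.3), replication and G1/S genes. No mitotic gene of the list (Ccnb1, Cdk1, Aurka, Aurkb, Plk1) had p300 at the start, beside 7.56% of all genes. These mitotic genes were picked after their values were seen and are too few to compare phases of the cycle. Cell cycle exit genes had H3K4me3 at 13 of 16 and p300 at 4 (25.0%), with Gadd45g highest at 89.6. All 27 ribosomal protein genes had H3K4me3 and 6 had p300 (22.2%), led by Rpl3 (95.7, 13000 bp). Of 25 oxidative phosphorylation genes 21 had H3K4me3 and 1 had p300 (4.0%). NuRD genes had H3K4me3 at 14 of 15 and p300 at 7 (46.7%), led by Cdk2ap1 (96.7), Chd3 (93.8) and Mbd3 (82.3), while Chd4 itself had H3K4me3 only, with a peak away 6205 bp from its start. Histone acetylation genes had H3K4me3 at 17 of 22 and p300 at 5 (22.7%), and 5 were nearest to peaks away. The reader Brd2 (94.5) was the strongest, and Ep300 itself had an H3K4me3 peak of 4300 bp without p300, as did Crebbp. H3K4 methylation genes had H3K4me3 at 14 of 16 and p300 at 2, Kmt2a (22.3) and Kmt2b (14.2).

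**Figure D4:**
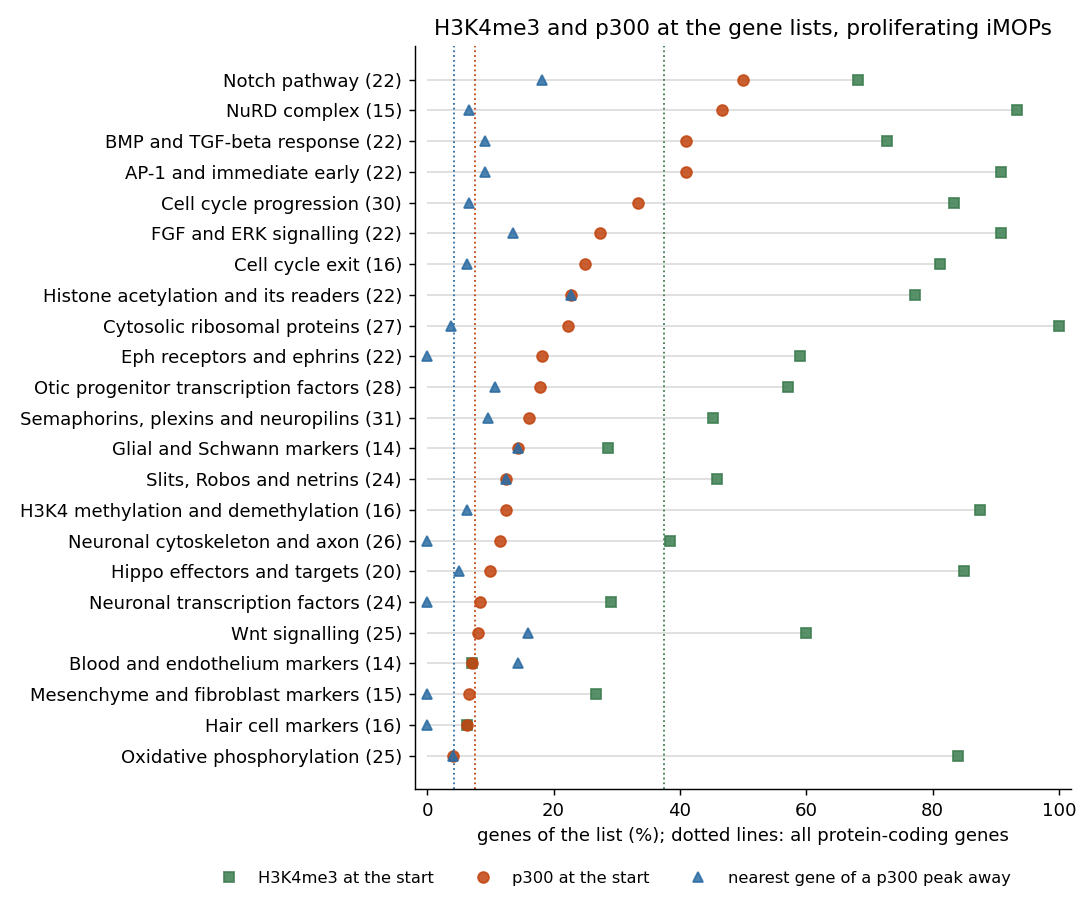
Share of the genes of each list (%, list size in brackets) with H3K4me3 at the start (squares), p300 at the start (circles) or a p300 peak away from H3K4me3 nearest to them within 50 kb (triangles); dotted lines give the shares over all protein-coding genes, 37.5%, 7.56% and 4.17%. Notch genes stand highest for p300 at the start (50%) and oxidative phosphorylation genes lowest (4.0%) although 84.0% of them have H3K4me3.

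For markers of other cell types, H3K4me3 was at 1 of 16 hair cell genes, 4 of 14 glial genes, 4 of 15 mesenchyme genes and 1 of 14 blood and endothelium genes. p300 at the start was found at 1, 2, 1 and 1 of them: Myo6, Erbb3 and Cnp, Vim, and Cd68. These shares of 6.25%, 14.3%, 6.67% and 7.14% stand beside 7.56% of all genes. Peaks away were nearest to 2 glial genes (Pmp22 and Cnp) and 2 blood and endothelium genes (Pecam1 and Tek), 14.3% of each list against 4.17% of all genes, and to none of the hair cell and mesenchyme genes. The Cd68 peak (12150 bp, 97.4 percentile) also spans the neighbouring gene Eif4a1, a translation factor, where its highest signal lies nearest.

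The other libraries gave readouts the sorting of p300 peaks did not use. CHD4 of the same cells overlapped 93.0% of p300 peaks at H3K4me3 (91.6 to 94.3%) and 90.9% away (89.5 to 92.2%), a difference of 2.13 points (0.17 to 4.06). Among H3K4me3 peaks it overlapped 92.7% of those with p300 and 12.4% of those without. In neurons H3K4me3 was listed at 81.9% of p300 peaks at H3K4me3 and at 8 of 1737 away (0.46%). This contrast is not separate from the sorting, which used H3K4me3 of dividing cells. Of all H3K4me3 peaks of dividing cells, 74.0% were listed again in neurons. CHD4 of neurons overlapped 76.3% of p300 peaks at H3K4me3 and 74.9% away, a difference of 1.36 points (-1.71 to 4.41).

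p300 itself behaved differently. Of the peaks at H3K4me3, 12% (10.4 to 13.8%, 169 peaks) overlapped a p300 peak of neurons, against 32.8% (30.6 to 35.1%, 570 peaks) of those away, a difference of -20.8 points (-23.6 to -17.9). The neuron p300 list holds 965 peaks, and whether depth or the threshold set its length was not tested. Stronger peaks were listed again more often in each class, and the difference was present in each quartile of total signal: 2.18% against 13.1%, 2.49% against 20.2%, 7.08% against 32.8% and 39.0% against 62.4%. It was present in each quartile of width too, from 2.31% against 18.2% in the narrowest to 27.1% against 44.8% in the widest. Among peaks within 1 kb of a gene start the shares were 9.75% at H3K4me3 and 24.5% away (17.6 to 32.5%). Elsewhere in gene bodies they were 26.6% (18.6 to 35.9%) and 35.6% (32.2 to 39.1%), and outside genes 22.2% (14.8 to 31.2%) and 31.7% (28.5 to 34.9%), with intervals that overlap in both. By distance, 6.45% of the 31 peaks within 1 kb of H3K4me3 were listed again, 23.9% from 1 to 5 kb, 36.2% from 10 to 50 kb and 35.7% from 100 to 500 kb, with 20.0% beyond.

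**Figure D5:**
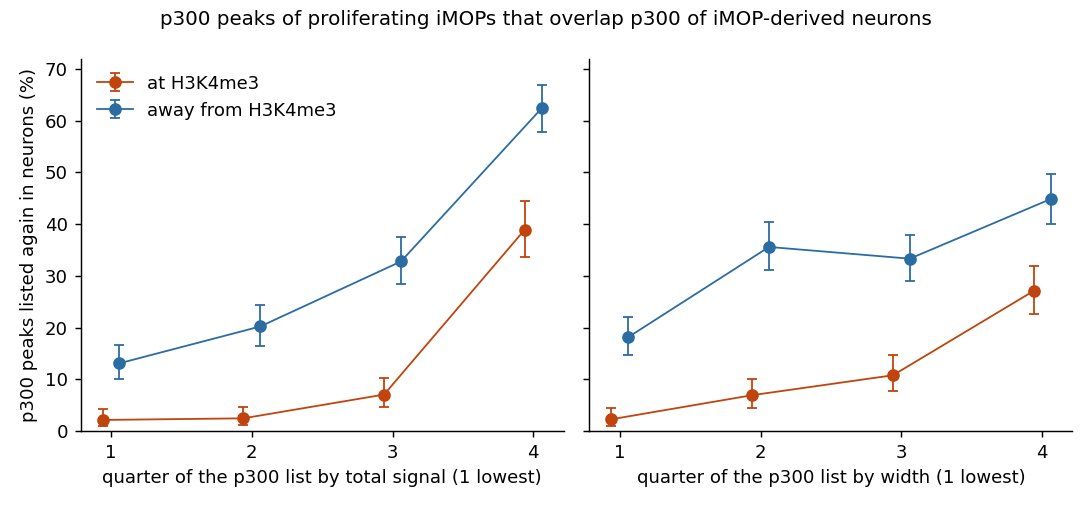
Share of p300 peaks of proliferating iMOPs that overlap a p300 peak of iMOP-derived neurons (%, points with 95% intervals), for peaks at and away from H3K4me3, in quartiles of the p300 list by total signal (left) and by width (right). Peaks away lie above peaks at H3K4me3 in each quartile, from 13.1% against 2.18% in the weakest to 62.4% against 39.0% in the strongest.

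H3K4me3 peaks with p300 were listed again as H3K4me3 in neurons at 82.7% and those without at 72%. Since peaks with p300 are wider, the shares were set side by side within quartiles of width. They were 54.4% and 54.2% in the narrowest, 80.2% and 72.5%, 81.1% and 82.2%, and 87.3% and 86.0% in the widest, with intervals that overlap in each quartile. Among the H3K4me3 peaks not at a coding start, 49.0% with p300 and 53.4% without were listed again.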

How the data were processed

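CUT&Tag was done by the authors for p300, H3K4me3 and CHD4 in 2 states, with 1 library each and reads of 150 bp from both ends, per the labels' protocols. Bowtie2, SEACR, deepTools and the mm10 build are listed per the submitters' processing notes; versions, roles and thresholds are not given in the sources used here, nor is whether a list pools several libraries. Each list gives per peak the total and the highest signal as deposited by the authors, a coverage value whose scaling is not given, so signal was used only within a list. Nearly all peak edges lie on a grid of 50 bp, and a wider peak has more total signal.

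Lists were compared in Python 3.11.15 (SciPy 1.17.1, pandas 2.3.3, numpy 2.4.6) and drawn with matplotlib 3.10.9, and the functions were tested on simulated data. Overlap needed 1 bp. Genes were 21883 protein-coding RefSeq genes (GRCm38.p6). Starts and strand came from the RefSeq promoter table for 17491 of them (21262 starts), and both annotated ends stood in for the start of the other 4392. Peaks away were assigned to the gene with the nearest start within 50 kb of the position of highest signal. Intervals of differences combine the intervals of both values. The share of a list's genes is read beside that of all genes. Of the listed genes 495 were found and 2 were not.

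Named genes were the 12 strongest p300 peaks of each class, the 5 widest H3K4me3 peaks with and without p300, the 5 peaks most distant from H3K4me3, up to 4 members per list with the strongest p300 at the start and away, the 8 genes with most peaks away, and 9 genes named always (Ep300, Sox2, Epha4, Fos, Hes1, Myc, Tubb3, Neurog1, Neurod1). Some genes that the rule names are not reported here. Further list members, histone genes and microRNAs were chosen after their values were seen. Members and lists were chosen with earlier results of these data known. Alternatives varied the overlap rule, list length, chromosomes and windows. Use of both annotated ends for every gene and trimming of p300 to the length of the neuron list were chosen after seeing the data. The IgG libraries were left out. Sequence of peaks away from gene starts was not used here.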

Additional observations from a re-analysis of the deposited data

How the results depend on the processing

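Of 78 recomputed values, 44 moved by less than the error of the main value and 34 moved by more. The values, in order, are p300 peaks at H3K4me3 (44.8% as reported), H3K4me3 peaks with p300 (18.4%), peaks away at a start (8.0%), H3K4me3 genes with p300 (18.2%), the median gap (64000 bp), the width ratio of p300 peaks at over away (1), that of H3K4me3 peaks with over without p300 (1.39), and the difference in re-listing in neurons (-20.8 points). With each list cut to its top 50% of peaks by total signal they were 35.9%, 14.8%, 13.2%, 14.1%, 102250 bp, 1.05, 1.46 and -25.6 points. By highest signal they were 29.6%, 12.4%, 17.9%, 12.2%, 145025 bp, 0.873, 1.23 and -27.2 points, and the percentile difference went from -3.05 to -13.8 points. With H3K4me3 trimmed to 3144 peaks the first 5 were 34.5%, 33.6%, 17.5%, 31.9% and 127500 bp, and the H3K4me3 width ratio was 1.24, while the percentile difference changed sign, to 0.18 points, with intervals that include 0 in both. These settings shorten the lists and keep the stronger peaks, so length and strength change together. With p300 trimmed to 965 peaks, chosen after seeing the data, 41.9% of p300 peaks, 5.43% of H3K4me3 peaks and 5.12% of H3K4me3 genes overlapped, the width ratios were 1.20 and 1.73, and the neuron difference was -25.4 points. A window of 2.5 kb gave 10.2% of peaks away at a start and 19.1% of genes. Both annotated ends, also chosen after seeing the data, gave 12.3% and 19.8%. With 50% of the p300 peak covered its width ratio was 0.957. The cause of these shifts was not tested. Read depth is unknown, so a peak missing from a list is not shown to be absent. No paired analysis was possible because each group has 1 library.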
